A study of Mus musculus with 7 samples.

Results

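The epithelial miR-200 family was examined by small RNA sequencing of tissue dissected from adult C57BL/6J mice, namely the lateral ventricles of the brain together with the choroid plexus. Its members were taken by name: both arms of miR-200a, miR-200b, miR-429, miR-200c and miR-141, which make 10 of the 1914 mouse miRNA rows. There were 4 libraries labelled TAp73 knockout and 3 labelled wild type. TAp73, encoded by Trp73, is the p73 isoform with a transactivation domain. The labels give the strain, the tissue, the genotype and the adult stage, and they do not give the allele, how TAp73 was removed, or whether tissue of several animals was pooled. The series title places the study in the formation of multiciliated cells of the brain. Levels are given as counts per 1000000 reads of all mouse miRNA rows in a library (CPM).

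The family is known as a guardian of the epithelial state. Its members bind messenger RNAs through the seed, bases 2 to 8 of the mature strand, and their best known targets are those of the repressors Zeb1 and Zeb2, which in turn silence E-cadherin and the miR-200 genes themselves. The family is also known from olfactory neuron formation, and it is abundant in endocrine epithelia such as the pituitary. The dissected tissue holds 2 kinds of epithelial lining, the ependyma with its motile cilia and the secretory choroid plexus, beside neurons, glia, vessels and blood.

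The 10 arms come from 5 hairpins in 2 clusters, given here on build GRCm38. Mir200b (chromosome 4, 156055681 to 156055750), Mir200a (156054896 to 156054985) and Mir429 (156053905 to 156053987) lie on the minus strand within 1846 bases. In GENCODE mouse release 21 all 3 are intronic in the protein-coding gene Ttll10, which encodes a tubulin glycylase, on the same strand, and within the noncoding gene Gm13648, where Mir429 overlaps an exon. This cluster lies 1.91 Mb from Trp73 (chromosome 4, 154056253 to 154140208). Mir200c (chromosome 6, 124718322 to 124718390) and Mir141 (124717914 to 124717985) lie on the minus strand within 477 bases, in introns of the noncoding gene Gm15884, and Mir141 also overlaps part of the annotated transcript Gm29008.

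The 3p arms, which carried nearly all reads, are shown because they fall into 2 seed classes that cut across the clusters. The sequences are those of RefSeq on GRCm38.p6, read 5′ to 3′, with the seed in capitals. All 10 arms were matched to a sequence.
mmu-miR-200b-3p: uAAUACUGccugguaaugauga
mmu-miR-200c-3p: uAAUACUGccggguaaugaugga
mmu-miR-429-3p: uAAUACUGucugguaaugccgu
mmu-miR-200a-3p: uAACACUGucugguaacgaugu
mmu-miR-141-3p: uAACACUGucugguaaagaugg

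The classes differ by a single seed base: from miR-200b-3p to miR-200a-3p the change is U4C, counted from 1 at the 5′ end. Each cluster contributes to both classes. miR-200b-3p and miR-429-3p of the chromosome 4 cluster share the seed AAUACUG with miR-200c-3p of the chromosome 6 cluster, and miR-200a-3p of the former shares AACACUG with miR-141-3p of the latter. No other mature mouse miRNA in the RefSeq table had either seed. Between clusters the partners are close: miR-200a-3p and miR-141-3p differ by C17A and U22G, and miR-200b-3p and miR-200c-3p by U11G, A22G and 1 base of length. The way reads of such near-identical arms were assigned is not given in the sources used here. This limits how far the values of single arms, and of cluster sums, can be trusted beside the sum of a seed class. The deposited tables also list 71 rows of other species named miR-200, miR-141 or miR-429, and these held 0 reads.

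The opposite arms of the 2 hairpins read most often on that side share a seed with each other, AUCUUAC, which differs from both 3p seeds.
mmu-miR-200a-5p: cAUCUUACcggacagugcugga
mmu-miR-200b-5p: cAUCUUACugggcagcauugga

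The libraries held 969106 to 9343921 assigned reads, with knockout replicate 3 the shallowest, and mouse miRNAs took 98.55% to 98.98% of them. Markers of the labelled tissue were present in all 7 libraries: miR-204-5p of the choroid plexus stood at 2006 to 11775 CPM, and the summed multiciliated-cell arms of miR-34b, miR-34c and miR-449 at 386.4 to 3675 CPM. These tables hold no Trp73 value, so the genotype labels could not be compared with it. In tissue libraries such as these, fewer cells of a type and less of a miRNA per cell cannot be told apart.

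The family was scarce. Its 10 arms together had 3139 reads, 3089 of them from 3p arms and 50 from 5p arms. The family sum was 91.3, 111.2, 107.8 and 86.6 CPM in knockout replicates 1 to 4 and 93.8, 90.4 and 150.3 CPM in wild type replicates 1 to 3. In these sums 6 libraries lay close together and wild type replicate 3 stood above them. Of the 10 arms, 8 had at least 1 read and 4 had enough reads to be tested: miR-200b-3p, miR-429-3p, miR-200a-3p and miR-141-3p. The other 4 with reads had 9 to 58 in total, and miR-429-5p and miR-200c-5p had 0 in all 7 libraries, which allows a level of up to 0.0989 CPM over the pooled 30322137 reads.

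miR-200b-3p of the chromosome 4 cluster was the most abundant arm, at 50.3 CPM on average and rank 248 among the mouse miRNA rows. It made up 48.2% of all reads of the family. It was followed by miR-429-3p at 17.4 CPM, miR-141-3p at 17.0 CPM and miR-200a-3p at 15.6 CPM, and then, far below, by miR-200c-3p at 1.94 CPM and miR-200a-5p at 1.27 CPM. miR-200b-3p exceeded miR-429-3p in all 7 libraries, by 2.14 to 5.58 times. The order of the next 3 was not stable between libraries: miR-429-3p exceeded miR-200a-3p in 5 of 7 and miR-141-3p in 5 of 7, and miR-141-3p exceeded miR-200a-3p in 2 of 7. miR-200a-3p was 4.86 to 14.0 times as abundant as miR-200c-3p. At the low end, miR-200c-3p and miR-200a-5p were not in a stable order, with the former higher in 6 of 7 libraries at ratios from 0.333 to 7.

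In the chromosome 4 cluster the knockout and wild type levels overlapped for each arm. miR-200b-3p stood at 46.1, 56.1, 59.7 and 44.8 CPM in knockout replicates 1 to 4, and at 49.7, 40.7 and 55.1 CPM in wild type replicates 1 to 3. The 2 groups covered nearly the same range, and the highest value, in knockout replicate 3, rested on 57 reads with a counting interval of 45.2 to 77.3 CPM (exact Poisson, 95%). Knockouts averaged 51.7 ± 7.33 CPM (SD, n = 4), against 48.5 ± 7.28 CPM for wild types (SD, n = 3). The log2 fold change, knockout minus wild type, was 0.15 ± 0.18 (SE, 95% interval -0.24 to 0.55, edgeR quasi-likelihood adjusted p = 0.73).

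miR-200a-3p, the other seed class of the same cluster, was at 14.9, 18.7, 14.7 and 10.8 CPM in knockouts and at 16.7, 14.9 and 18.6 CPM in wild types. Knockout replicate 4 was the lowest and the remaining 6 libraries lay between 14.7 and 18.7 CPM. The log2 fold change was -0.09 ± 0.24 (95% interval -0.61 to 0.43, edgeR adjusted p = 0.87), and it was 0.02 without knockout replicate 4.

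miR-429-3p, which shares the seed of miR-200b-3p, was at 19.2, 23.0, 17.8 and 17.8 CPM in knockouts and at 8.90, 19.0 and 16.5 CPM in wild types. The groups overlapped through wild type replicate 2, while wild type replicate 1 lay below the other 6 libraries, with 24 reads and a counting interval of 5.70 to 13.2 CPM. The log2 fold change was 0.50 ± 0.26 (95% interval -0.08 to 1.08, edgeR adjusted p = 0.45), and it was 0.24 ± 0.24 without wild type replicate 1 (edgeR adjusted p = 0.74). In wild type replicate 1 the ratio of miR-429-3p to miR-200b-3p was 0.179, against 0.298 to 0.467 in the other 6 libraries, whereas its ratio of miR-200a-3p to miR-200b-3p was 0.336, within the range of 0.241 to 0.367 over all libraries. In that library the low value was thus seen in miR-429-3p and not in miR-200a-3p of the same cluster.

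The ratio of miR-200a-3p to miR-200b-3p, both from the chromosome 4 cluster, was 0.324, 0.333, 0.246 and 0.241 in knockouts and 0.336, 0.367 and 0.338 in wild types. The knockouts lay below the wild types by a narrow margin, between knockout replicate 2 and wild type replicate 1, and the log2 difference was -0.29 ± 0.13 (SE over libraries, no test). Neither arm was itself separated by genotype. Several ratios with shared arms were examined within the family. In level rather than ratio, 11.8% of the 534 miRNAs tested had groups that did not overlap.

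**Figure D1:**
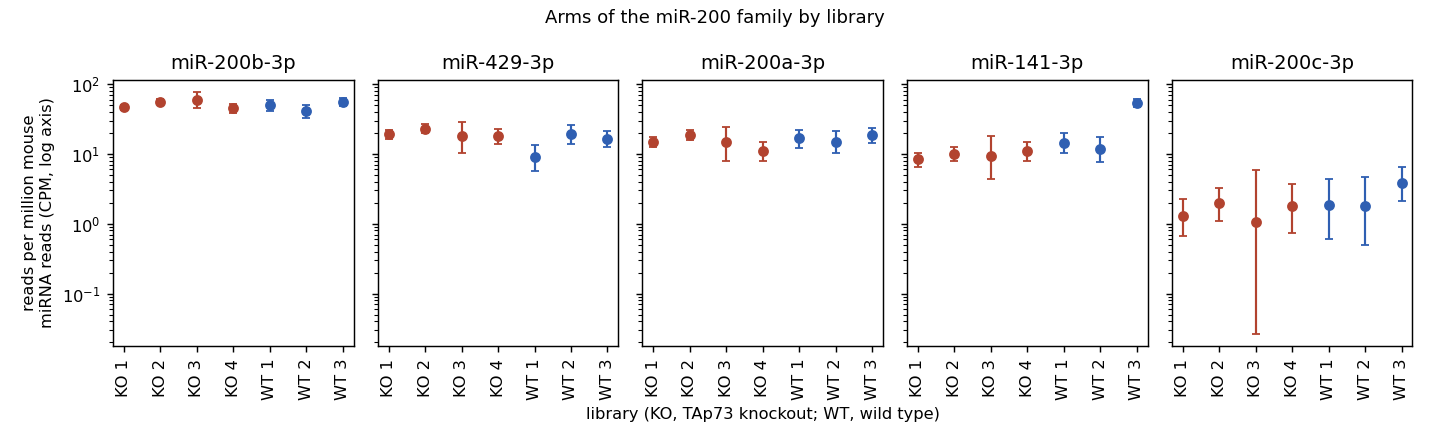
Level of each 3p arm in each library, in CPM on a log axis; points are single libraries, bars are exact 95% Poisson counting intervals, red marks TAp73 knockouts and blue wild types. miR-200b-3p stays between 40.7 and 59.7 CPM, miR-429-3p falls to 8.90 CPM in wild type replicate 1, and miR-141-3p reaches 53.7 CPM in wild type replicate 3 alone.

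In the chromosome 6 cluster, 1 wild type library stood far above the other 6. miR-141-3p was at 8.34, 10, 9.42 and 11.1 CPM in knockout replicates 1 to 4, and at 14.5, 11.8 and 53.7 CPM in wild type replicates 1 to 3. Every knockout lay below every wild type, but knockout replicate 4 and wild type replicate 2 were nearly equal, with counting intervals of 8.02 to 14.9 and 7.68 to 17.2 CPM. With TMM and RLE scaling the groups also stayed apart, and with upper quartile scaling they overlapped, with the highest knockout at 11.59 CPM and the lowest wild type at 11.56 CPM. Wild type replicate 3, with 196 reads, was the one library set far above the rest.

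For miR-141-3p, knockouts averaged 9.71 ± 1.144 CPM (SD, n = 4), against 26.7 ± 23.5 CPM for wild types (SD, n = 3). The log2 fold change was -1.39 ± 0.44 (95% interval -2.36 to -0.43), with an unadjusted p of 0.0087 and an edgeR adjusted p of 0.23 over the 534 miRNAs tested. Without wild type replicate 3 it was -0.40 ± 0.26 (edgeR adjusted p = 0.53), and without each of the other libraries in turn it ran from -1.73 to -1.33. Adjusted p-values for this arm ran from 0.0065 to 0.53 over the alternatives tried, the lowest in edgeR with no filter on low counts, the only alternative in which it was called. DESeq2 gave an adjusted p of 0.099.

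miR-200c-3p, encoded in the same cluster, had 58 reads in all and was not tested. It was at 1.30, 1.95, 1.05 and 1.80 CPM in knockouts and at 1.85, 1.81 and 3.84 CPM in wild types. Again wild type replicate 3 was the highest, with 14 reads and a counting interval of 2.10 to 6.44 CPM, and the groups overlapped. miR-141-3p was 5.13 to 14.0 times as abundant as miR-200c-3p, with the highest ratio in wild type replicate 3 and the other 6 libraries at 5.13 to 9. miR-141-3p therefore stood further above its level in the other libraries in wild type replicate 3 than miR-200c-3p did, though few reads lie behind the second.

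Over the 4 tested arms of the family, 0 were called at an adjusted p under 0.05, against 1.12% of all 534 miRNAs tested (0.749% in the lower direction). At an unadjusted p under 0.05, 1 of the 4 passed, miR-141-3p, against 12.9% of all tested and 6.74% in the lower direction. The same arm was the only 1 of the 4 whose groups did not overlap, against 11.8% of all tested and 8.24% in the lower direction. The median log2 fold change of the 4 was 0.03, with 2 positive, beside -0.02 over all tested, of which 252 were positive. Which arms passed the filter on low counts depended on their level, so these counts describe the 3p arms of 4 hairpins and not the whole family.

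**Figure D2:**
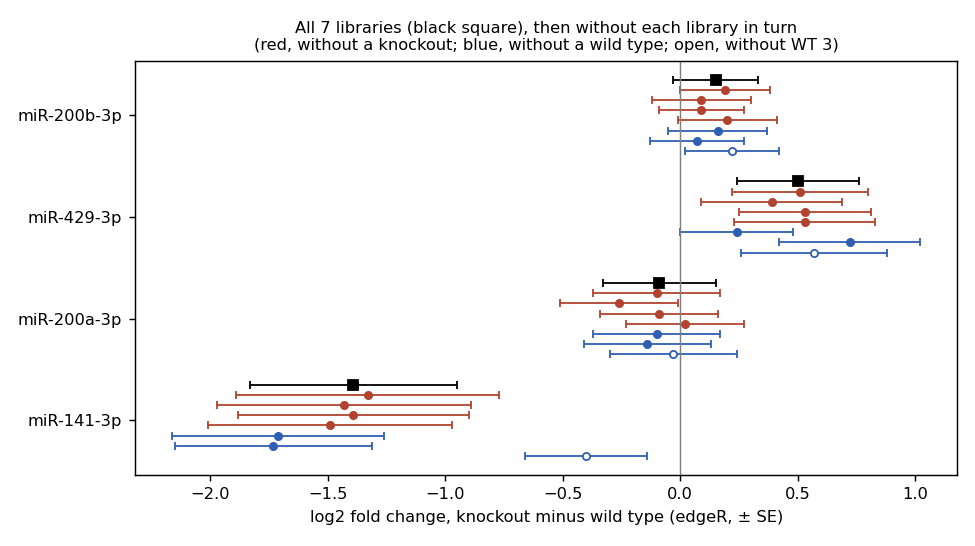
Log2 fold change of the 4 tested arms, knockout minus wild type, from edgeR with all 7 libraries (black squares) and with each library left out in turn (circles; red for a knockout, blue for a wild type, open for wild type replicate 3); bars are SE. Only miR-141-3p moves far, from -1.39 with all libraries to -0.40 without wild type replicate 3.

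The summed levels of the 2 clusters differed in how even they were. The chromosome 4 cluster stood at 81.4, 99.1, 96.3 and 73.7 CPM in knockouts and at 76.7, 76.4 and 92.1 CPM in wild types. These ranges overlapped, with a log2 difference of 0.10 ± 0.13 (SE over libraries, knockout minus wild type). The chromosome 6 cluster stood at 9.86, 12.1, 11.5 and 12.9 CPM in knockouts and at 17.1, 14.0 and 58.1 CPM in wild types. Each knockout lay below each wild type, with a log2 difference of -1.06 ± 0.65, which was -0.42 ± 0.16 without wild type replicate 3. Of the 534 single miRNAs tested, 8.24% were separated in that direction. No p is given for these sums, because the family was picked for description with earlier results of these data known; the p-values of single arms come from the fit over all 534 miRNAs.

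Because both clusters are counted in the same library, their ratio does not depend on how libraries are scaled. It can depend on how reads of near-identical arms were assigned, since such partners lie in different clusters. The chromosome 6 cluster had 0.121, 0.122, 0.120 and 0.175 reads for each read of the chromosome 4 cluster in knockout replicates 1 to 4, and 0.222, 0.183 and 0.631 in wild type replicates 1 to 3. The groups did not overlap, though knockout replicate 4 came close to wild type replicate 2. miR-141-3p by itself made up 9.92% ± 1.93 of a library's family reads over the 4 knockouts and 21.4% ± 12.5 over the 3 wild types (SD). As shares of all reads of the family, knockout replicate 4 and wild type replicate 2 had 14.9% (exact binomial 95% interval 11.3% to 19.1%, 50 of 336 reads) and 15.5% (10.8% to 21.3%, 31 of 200 reads) from the chromosome 6 cluster. The share in wild type replicate 3 was 38.7% (34.6% to 42.9%, 212 of 548 reads). The log2 difference of the ratio was -1.16 ± 0.57, and -0.61 ± 0.19 without wild type replicate 3.

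By seed, the AAUACUG class (miR-200b-3p, miR-200c-3p and miR-429-3p) averaged 72.7 ± 8.36 CPM over the 4 knockouts and 65.8 ± 8.36 CPM over the 3 wild types (SD). The AACACUG class (miR-200a-3p and miR-141-3p) averaged 24.5 ± 2.95 and 43.4 ± 25.2 CPM. Its groups overlapped, with knockouts up to 28.7 CPM and wild types from 26.7 CPM, and the log2 difference of -0.68 ± 0.46 was -0.24 without wild type replicate 3. The AACACUG class held 0.350, 0.354, 0.307 and 0.340 reads for each read of the AAUACUG class in knockouts, and 0.515, 0.434 and 0.960 in wild types. The 4 knockouts were close to each other and below all 3 wild types, including those other than replicate 3. For wild type replicates 1 and 2, however, counting intervals overlapped those of knockouts. As a share of both classes, AACACUG had 26.2% in knockout replicate 2 (exact binomial 95% interval 23.2% to 29.3%). It had 34.0% (28.1% to 40.3%) in wild type replicate 1 and 30.3% (23.9% to 37.2%, 59 of 195 reads) in wild type replicate 2. The log2 difference of the ratio of the seed classes was -0.83 ± 0.35. It was -0.49 ± 0.13 without wild type replicate 3, where 2 wild types remained. miR-141-3p enters this ratio and the ratio of the clusters, so the ratios are not separate observations.

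Within the AACACUG class the arms did not move alike in the wild types. miR-141-3p had 0.867, 0.788 and 2.88 reads for each read of miR-200a-3p in wild type replicates 1 to 3, and 0.558, 0.535, 0.643 and 1.02 in knockout replicates 1 to 4. Knockout replicate 4 exceeded wild type replicates 1 and 2, so the groups overlapped. In that knockout library miR-200a-3p was at its lowest, 10.8 CPM.

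**Figure D3:**
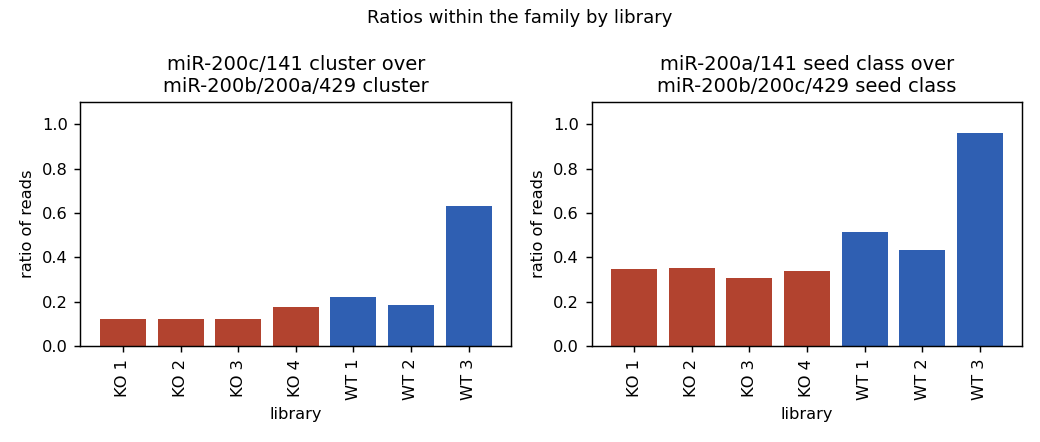
Reads of the chromosome 6 cluster for each read of the chromosome 4 cluster (left) and of the AACACUG seed class for each read of the AAUACUG seed class (right), in each library; red bars are TAp73 knockouts and blue bars wild types. The knockouts lie at 0.120 to 0.175 on the left and 0.307 to 0.354 on the right, below the wild types, with wild type replicate 3 at 0.631 and 0.960.

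Reads of the 5p arms, which are usually degraded when the hairpin is processed, were few and differed between hairpins. Over all libraries they made up 5.65% of the reads of miR-200a (29 of 513, exact binomial 95% interval 3.82% to 8.02%), 1.89% of miR-141 (9 of 476, 0.868% to 3.56%) and 0.786% of miR-200b (12 of 1526, 0.407% to 1.37%). The interval of miR-200a did not reach those of the other 2. For miR-429 they were 0 of 566 reads, with an exact binomial 95% interval up to 0.650%, and for miR-200c 0 of 58, with one up to 6.16%. These intervals cover counting error only, and the reads of 7 libraries were pooled. In single libraries miR-200a-5p had 7, 8, 3 and 1 reads in knockout replicates 1 to 4 and 4, 3 and 3 in wild type replicates 1 to 3, and miR-200b-5p and miR-141-5p had at most 4. These counts are too low to compare the genotypes. For miR-200a the 5p share was 5.32% in knockouts and 6.41% in wild types, for miR-141 it was 1.90% and 1.88%, and for miR-200b it was 0.639% (7 of 1096 reads) and 1.16% (5 of 430 reads).

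Other miRNAs of wild type replicate 3 stood apart as well. In a list of pituitary and neuroendocrine miRNAs (7 arms of miR-7a, miR-7b and miR-375), the summed level was 358.1 to 631.2 CPM in knockouts and 492.6, 454.0 and 1403 CPM in wild type replicates 1 to 3. miR-375-3p, which is abundant in endocrine cells, was at 866.2 CPM in wild type replicate 3 and at 155.0 to 424.6 CPM in the other 6 libraries. miR-7a-5p was at 368.0 CPM there and at 75.6 to 160.5 CPM in the others. miR-7b-5p and miR-7a-2-3p were also highest in that library, at 113.2 and 28.5 CPM. By contrast, miR-7a-1-3p was at 25.8 CPM there and at 35.2 CPM in wild type replicate 1. miR-7b-3p, with 39 reads in all, was at 1.65 CPM there and at 2.26 CPM in wild type replicate 2. Of the list 5 arms were tested, all 5 had negative log2 fold changes with a median of -0.68, 2 had an unadjusted p under 0.05 and 0 were called, while miR-375-5p had 0 reads. Over all 534 miRNAs tested, 252 had positive log2 fold changes, 12.9% had an unadjusted p under 0.05 (6.74% in the lower direction) and 1.12% were called.

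That library also had the highest summed choroid plexus arms, 11789 CPM against 2015 to 8320 CPM, and the lowest summed neuronal arms, 14235 CPM against 19670 to 28663 CPM. Nearly all of the choroid plexus sum was miR-204-5p, at 11775 CPM in wild type replicate 3. miR-204-3p was also highest there, at 7.13 CPM. miR-211-5p was highest in knockout replicate 3, at 7.33 CPM against 6.85 CPM in wild type replicate 3. Of the 4 choroid plexus arms 3 were tested and 0 called, with miR-204-3p at -0.67 ± 0.49 (edgeR adjusted p = 0.59) and miR-211-3p at 0 reads. Of the 5 neuronal arms, all tested and each positive, 3 had an unadjusted p under 0.05 and 0 were called, beside the same shares over all tested, with miR-128-3p at 0.70 ± 0.20 (edgeR adjusted p = 0.15). The 3 were arms of miR-128, whereas miR-124-3p was at 0.16 ± 0.21 and miR-124-5p at 0.12 ± 0.27, both named after their values were seen (edgeR adjusted p = 0.76 and 0.86). The summed multiciliated-cell arms were highest in wild type replicate 3 too, at 3675 CPM, but wild type replicate 1 was close, at 3268 CPM. Wild type replicate 2 stood at 1291 CPM and the knockouts at 386.4 to 760.5 CPM, below each wild type. Most of the sum in wild type replicate 3 was miR-34c-5p, at 3430 CPM. miR-449c-5p went the other way, at 2.74 CPM there and 9.42 to 21.9 CPM in knockouts. miR-449a-5p was also lower there than in each knockout. Of the 9 multiciliated-cell arms 6 were tested, with 2 called higher and 4 called lower, beside 0.375% and 0.749% of all tested. Among these was miR-34b-3p at -2.56 ± 0.29 (edgeR adjusted p = 0.0014). Others were miR-34c-5p at -2.40 ± 0.33 and miR-449a-5p at 2.67 ± 0.41 (edgeR adjusted p = 0.0048 for each). The part of these tissue markers in the level of miR-141-3p was not tested.

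The summed level of other epithelial miRNAs was even over the libraries. The list held 13 arms of miR-205, miR-203, miR-31, miR-192, miR-194 and miR-215, which are known from skin, gut and kidney, and its summed level was 2387 to 2599 CPM in knockouts and 2473 to 2694 CPM in wild types. Most of this sum was 1 arm, miR-192-5p, at 2108 to 2396 CPM, so it says little of the other arms, among them miR-215-5p at -0.37 ± 0.26 (edgeR adjusted p = 0.58). Of 7 tested, 3 had positive and 4 negative log2 fold changes and 0 were called, with a median of 0.00. miR-205-5p, which also targets Zeb1 and Zeb2, was at 3.36, 1.69, 4.19 and 2.58 CPM in knockouts and at 5.56, 5.43 and 4.94 CPM in wild types. It was lower in every knockout than in every wild type, at levels of few reads, with a log2 fold change of -0.88 ± 0.37 (edgeR adjusted p = 0.38). Over all 534 miRNAs tested, 8.24% were separated in that direction and 1.12% were called. In the miR-183 cluster, known from sensory epithelia, 2 of 6 arms were tested, both with negative log2 fold changes, and 0 were called; miR-183-5p was at -0.08 ± 0.25 and miR-182-5p at -0.16 ± 0.16 (edgeR adjusted p = 0.91 and 0.72). Its summed level of 177.5 to 280.6 CPM in knockouts spanned the wild type range of 232.0 to 262.1 CPM.

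The miRNAs most like each cluster in pattern were named by the SD, over the 7 libraries, of their log2 ratio to the cluster sum, among 402 miRNAs outside the family with at least 10 CPM on average. For the chromosome 4 cluster, whose own log2 level had an SD of 0.18, these were let-7e-3p (SD 0.14), miR-330-3p (0.15), miR-351-5p (0.16), miR-93-5p (0.16) and miR-191-3p (0.16). Of these, let-7e-3p ranged from 20.8 to 28.5 CPM over the libraries. A miRNA at a constant level would have an SD of about 0.18 by this measure, so being named here says little beyond an even level. Pearson's correlation with the cluster ran from 0.47 for miR-93-5p to 0.83 for miR-191-3p. For the chromosome 6 cluster, with an SD of 0.86, they were miR-758-3p (0.31), miR-653-5p (0.41), miR-7a-5p (0.41), miR-135a-5p (0.47) and miR-672-5p (0.49). Each of these 5 was highest in wild type replicate 3, as miR-758-3p at 242.4 CPM against 53.4 to 104.5 CPM and miR-653-5p at 38.7 CPM against 4.29 to 7.26 CPM. The cluster itself was at 58.1 CPM in that library, far above the others. A high value there therefore follows from choosing miRNAs by likeness to the cluster and is not a separate result. For the chromosome 6 cluster miR-375-3p came at place 20, with an SD of 0.60. With Pearson's correlation as the measure 3 of the 5 for the chromosome 6 cluster and 2 of the 5 for the chromosome 4 cluster stayed among the nearest 5.

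**Figure D4:**
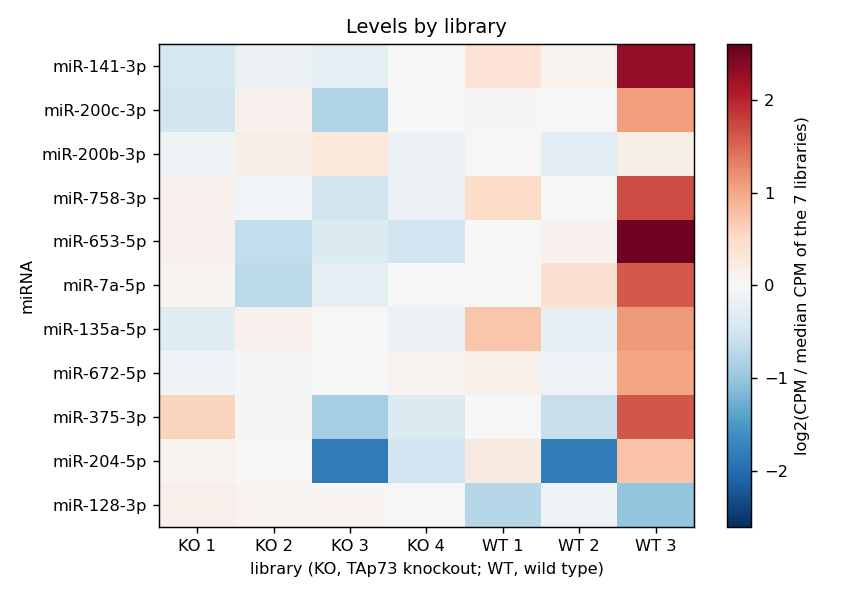
Level of each miRNA in each library as the log2 ratio to its median over the 7 libraries (colour), for arms of the miR-200 family, the 5 miRNAs nearest in pattern to the chromosome 6 cluster, and miR-375-3p, miR-204-5p and miR-128-3p. The column of wild type replicate 3 is high for miR-141-3p (2.28) and the 5 nearest miRNAs, near 0 for miR-200b-3p (0.15) and low for miR-128-3p (-1.02). The 5 nearest were chosen by likeness to a cluster that is itself high in that library.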

How the data were processed

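The authors deposited 1 table of raw read counts per library. Per the labels' protocols, total RNA came from a phenol/chloroform extraction and sequencing used TruSeq chemistry for small RNA. Names in the submitters' processing notes are bcl2fastq 2.17.1.14, DESeq2 and build mm10. Which aligner, counter and annotation were used is not given in the sources used here. Each table ends in 5 lines that name no small RNA and hold 0 reads.

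Knockouts were compared with wild types over all mouse miRNAs by edgeR 4.0.16 (R 4.3.3): TMM scaling, filterByExpr by genotype (minimum count 10, minimum total 15), robust quasi-likelihood test, Benjamini-Hochberg adjustment over the 534 rows tested, called under 0.05. The fit was tested on simulated data. Levels are per 1000000 mouse miRNA reads without TMM. Alternatives were DESeq2 1.42.0, other scalings and filters, no robust estimation, all species summed, a pseudocount of 1 CPM, 3p arms only, and leaving out libraries. TMM-scaled sums and the overlap of groups under other scalings were added after seeing the data.

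Members and lists were chosen with earlier results of these data known. Named are all 10 arms, the defining and smallest-p members of the marker lists, and the 5 miRNAs nearest in pattern to each cluster (0.5 reads added before the log). Further arms of the marker lists were named after their values were seen. No pair of the 21 pairs of libraries was identical (chi-square per degree of freedom 46.6 to 271.2). The labels do not say that each library is a separate animal, so each p-value reflects only how these libraries vary, which may be technical. Reads carry no molecular identifiers, so counting intervals and limits cover counting error only, and 3 reads correspond to 0.325 CPM in the deepest and 3.14 CPM in the shallowest library.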

Additional observations from a re-analysis of the deposited data

Results flagged for a closer look

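Among the 4 knockout libraries, 25 values of the family were examined for a library far from the other 3, and 3 stood out. This was judged by the gap to the nearest library relative to the group's range. Chance gives about 1 in 20 where values are independent and equally precise. The 25 values share arms and the libraries differ in depth, so 3 of 25 cannot be set against that rate. Knockout replicate 4 had a ratio of the chromosome 6 to the chromosome 4 cluster of 0.175, while the remaining knockouts had 0.120 to 0.122, so the gap made up 0.958 of the range. The ratio of miR-429-3p to miR-200a-3p was 1.64 in the same library, compared with 1.21 to 1.28 elsewhere in the group (gap 0.841). Both ratios contain miR-200a-3p, which had its lowest level there, 10.8 CPM from 42 reads. Of the knockouts, that library also had the lowest miR-200b-3p, at 44.8 CPM, and the highest miR-141-3p, at 11.1 CPM. The part of each arm in these ratios was not tested. The ratio of miR-429-3p to miR-200b-3p reached only 0.298 in knockout replicate 3, compared with 0.397 to 0.415 elsewhere in the group (gap 0.838), and rested on 17 reads of miR-429-3p. With 3 libraries, the wild types were not examined in this way.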

How the results depend on the processing

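The number of mouse miRNAs called was 6, and it was 19 with no filter, 13 with DESeq2, 19 without knockout replicate 3 and wild type replicate 2 together, and 3 to 14 when each library was left out (3 when wild type replicate 1 was dropped, 14 when it was wild type replicate 2). Knockout replicate 3 and wild type replicate 2 had the lowest summed choroid plexus arms, 2016 and 2015 CPM, against 5000 to 11789 CPM in the others. The part of this in the counts of called miRNAs was not tested. The number of called arms of the miR-200 family was 0, and 1 with no filter, which was miR-141-3p (log2 fold change -1.36, edgeR adjusted p = 0.0065); the cause was not tested. With each library left out it stayed at 0. The log2 fold change of miR-200a-3p ran from -0.26 to 0.02 and changed sign only without knockout replicate 4 (0.02). Those of miR-200b-3p (0.01 to 0.22), miR-429-3p (0.24 to 0.75) and miR-141-3p (-1.73 to -0.40) kept their sign in all 16 alternatives. With libraries left out in turn, the log2 difference ran from 0.03 to 0.18 for the chromosome 4 cluster, from -1.45 to -0.42 for the chromosome 6 cluster, from 0.09 to 0.25 for the AAUACUG class and from -0.96 to -0.24 for the AACACUG class. That of the ratio of the clusters ran from -1.50 to -0.61 and that of the seed classes from -1.06 to -0.49. Each value nearest 0 for the chromosome 6 cluster, the AACACUG class and both ratios came without wild type replicate 3. No paired analysis was possible because the labels number no replicates: the numbers used here follow the order of deposit within a genotype, and nothing ties equal numbers to a shared litter, batch or day. Depth limits the 4 untested arms with reads and the values of knockout replicate 3 most.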
